A study of Homo sapiens with 9 samples.

Results

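Rab GTPases are small membrane switches that decide where a vesicle is formed, moved and fused. The genes described here are the 57 whose annotated symbol is RAB followed by a number and at most 1 letter, among 19775 genes with a probe set of their own on the array. Each gene was represented by its brightest probe set annotated to no other gene, taken over the 9 arrays. Of the 57, 49 lay at or above the background level, set at the median over all probe sets (log2 signal 6.05, or 65.4 unlogged), as did 12616 genes in all.

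A Rab cycles between a GDP-bound form held in the cytosol by GDP dissociation inhibitor and a GTP-bound form anchored in a membrane by prenyl groups. Exchange factors load GTP, GTPase-activating proteins end the signal, and effectors such as tethers and motors bind only the GTP form. Different Rabs mark the early endosome, recycling endosome, lysosome, Golgi and secretory vesicle, and epithelial cells use several of them to sort cargo to the apical and basolateral surfaces.

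RNA came from A549 cells, a human lung adenocarcinoma line, and was measured on Affymetrix arrays. The 3 si-Ctrl arrays came from cells with a control oligo, the 3 si-Med23 arrays from cells with RNA interference oligos A, B and C against MED23, a subunit of the Mediator transcription complex, and the 3 si-Elk1 arrays from cells with oligos A, B and C against ELK1, an ETS transcription factor that can contact MED23. All cells were grown alike in medium with serum and given no other treatment. The oligos of a knockdown differ from each other and are described as different cell lines, while the labels do not say whether the controls were grown separately, so p-values measure a spread that may be technical there. In bulk RNA a smaller number of cells of a kind and less RNA per cell cannot be told apart.

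The targeted genes followed the labels. MED23 read 9.27, 9.05 and 9.08 (log2 signal) in si-Ctrl, 6.79, 6.19 and 7.06 in si-Med23 A, B and C, and 8.87, 9.02 and 8.18 in si-Elk1 A, B and C. ELK1 read 9.36, 9.61 and 9.29 in si-Ctrl, 9.98, 10.36 and 9.54 in si-Med23 and 7.07, 7.15 and 7.83 with si-Elk1. MED23 was thus reduced to 18.2% of control in si-Med23 and ELK1 to 23.8% in si-Elk1. Among the si-Elk1 arrays the one with oligo C had the lowest MED23 and the highest ELK1. All 5 epithelial markers and all 7 genes known to be high in A549 were above background, as were 3 of 4 lung lineage, 1 of 2 blood (CD3E at 6.37, with PTPRC under the level), 1 of 3 endothelial (PECAM1 at 7.54, with VWF and CDH5 under it) and 0 of 3 fibroblast markers. The median signal of an array ran from 64.9 to 88.2, and no pair of arrays was identical.

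Promoter sequence is shown because ELK1 binds ETS sites. The letters CCGGAAGT were searched on both strands (ACTTCCGG on the other) in the RefSeq promoter table of GRCh38.p14, from 250 bases before to 50 bases after each listed start, with no other motif searched. They occurred in 4.14% of the 35116 listed promoters and in 4 of 64 promoters (6.25%) of the 45 Rab genes listed. RAB12, RAB15, RAB1A, RAB20, RAB26, RAB2A, RAB33A, RAB33B, RAB36, RAB37, RAB38 and RAB39B were not listed. The 4 promoters with the site follow in the direction of transcription, with the site in capitals. They are RAB11A (chr15:65869386-65869445, + strand), RAB17 (chr2:237590794-237590853, - strand), RAB24 (chr5:177303762-177303821, - strand) and RAB27A (chr15:55319124-55319183, - strand, at 1 of 5 listed starts), with the site 79, 93, 76 and 28 bases before the start.
RAB11A: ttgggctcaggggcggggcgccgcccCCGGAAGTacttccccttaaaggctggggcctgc
RAB17: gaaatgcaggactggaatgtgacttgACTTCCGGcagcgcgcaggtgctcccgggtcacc
RAB24: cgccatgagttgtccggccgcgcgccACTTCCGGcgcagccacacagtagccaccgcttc
RAB27A: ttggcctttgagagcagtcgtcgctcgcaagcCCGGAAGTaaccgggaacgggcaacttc

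For contrast, 3 genes that the results below turn on, and whose listed promoters lack these letters, are shown by the 100 bases just before the start, with no capitals since no site is marked. They are RAB32 (chr6:146543733-146543832, + strand), RAB8A (chr19:16111789-16111888, + strand) and RAB8B (chr15:63189506-63189605, + strand). RAB8A and RAB8B encode close relatives that moved in opposite directions in si-Med23.
RAB32: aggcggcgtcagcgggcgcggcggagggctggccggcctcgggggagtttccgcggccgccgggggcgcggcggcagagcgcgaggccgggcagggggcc
RAB8A: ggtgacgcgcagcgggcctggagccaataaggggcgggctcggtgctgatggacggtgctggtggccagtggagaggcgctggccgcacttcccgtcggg
RAB8B: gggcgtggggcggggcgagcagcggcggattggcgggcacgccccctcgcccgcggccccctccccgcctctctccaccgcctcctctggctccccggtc

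These are GC-rich stretches, and the median GC content of the 250 bases before the start was 64.8% over the Rab promoters and 58.0% over all listed promoters. None of the 4 genes with the site passed the test in si-Elk1, where the log2 fold changes were 0.19 for RAB11A, 1.67 for RAB17, 0.38 for RAB24 and 0.17 for RAB27A. RAB17 was dim, at 5.64, 6.18 and 4.12 in si-Ctrl, and its change was 0.89 with signals under the background level raised to it. A match describes letters and is not a bound site.

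The brightest probe sets were those of RAB1A (mean log2 signal 14.46), RAB10 (13.87), RAB11A (13.68), RAB2A (12.66) and RAB13 (12.46), which serve the ER-to-Golgi step, basolateral delivery, recycling, the Golgi and cell junctions. Brightness depends on the probes as well as on the RNA, so this order is not an order of abundance. The 8 genes near background were RAB25, RAB33A, RAB3A, RAB3C, RAB40A, RAB6A, RAB7B and RAB9B. RAB3A (5.98) and RAB33A (5.81) lay just under the level, and RAB17 (6.29) and RAB39B (6.56) just above it. RAB6A, a Golgi Rab, was read here only by a dim probe set at 3.80, because its brighter probe sets are also annotated to RAB6D.

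Knockdown of MED23 was accompanied by higher signals of 14 Rab genes and lower signals of 5, and 30 did not pass the test. The 19 genes are 38.8% of the 49 tested, and 39.8% of all 12616 genes passed, so the share among Rab genes was near that background. By direction, 28.6% of the Rab genes were higher and 10.2% lower, against 20.3% and 19.5% of all genes. The median log2 fold change was 0.19 for Rab genes and 0.09 for all genes. These directions are relative to the deposited scaling: with arrays scaled on the poly-A spikes, control RNAs usually added before labelling, every value of this comparison moved by -1.61, and only RAB20 of the 14 stayed higher, while all 5 falls stayed lower. The shift was -0.50 with the hybridization controls, under which RAB24 and RAB4A turned, and 0.23 with array medians, under which none turned. The split of higher to lower calls, 14 to 5 as deposited, was 25 to 4 with array medians, 3 to 16 with the hybridization controls and 1 to 42 with the poly-A spikes.

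**Figure D1:**
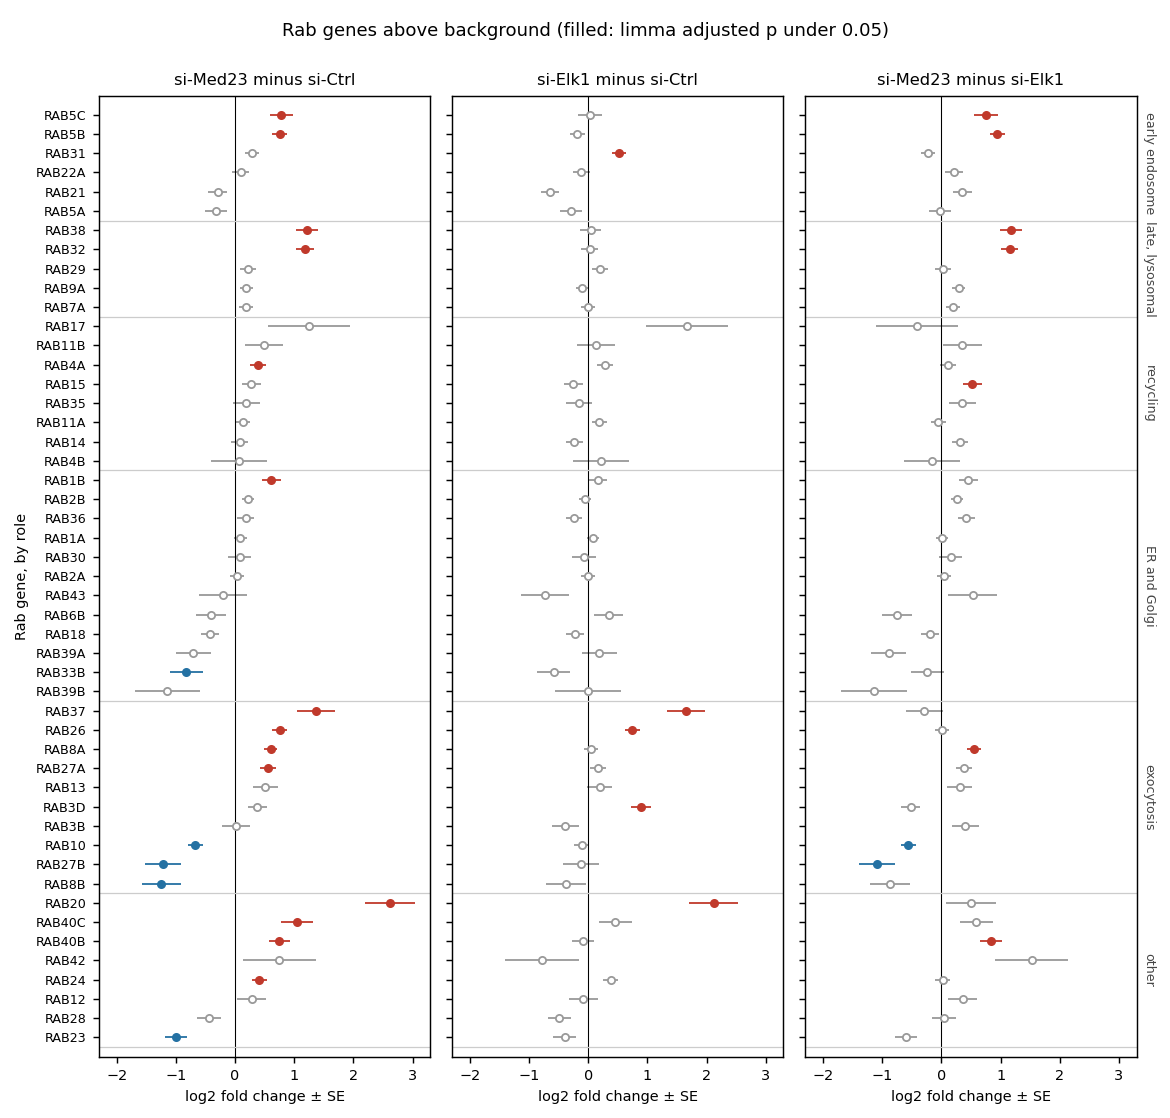
Each point is the log2 fold change (x axis, ± SE from limma, 3 arrays a group) of 1 of the 49 Rab genes above background, grouped by role, in the 3 contrasts; filled red and blue points passed as higher and lower at an adjusted p under 0.05. In si-Med23 against si-Ctrl 14 are higher and 5 lower, in si-Elk1 against si-Ctrl 5 higher and 0 lower, and in si-Med23 against si-Elk1 7 higher and 2 lower; scaled on the poly-A spikes, 13, 1 and 5 of those rises turn negative.

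The Rabs of the early endosome divided by paralog. RAB5A, RAB5B and RAB5C drive fusion of endocytic vesicles with the early endosome. RAB5B read 9.36, 9.38 and 9.56 in si-Ctrl, 10.10, 10.16 and 10.32 in si-Med23 and 9.10, 9.34 and 9.31 with si-Elk1. The si-Med23 arrays lay above all others, with a log2 fold change against si-Ctrl of 0.76 ± 0.12 (SE, adjusted p = 0.00342). RAB5C read 11.04, 10.37 and 10.88 in si-Ctrl, 11.42, 11.62 and 11.60 in si-Med23 and 10.54, 10.78 and 11.06 with si-Elk1, again with no overlap between si-Med23 and the others (0.78 ± 0.20, adjusted p = 0.0156). Both turned lower than control when arrays were scaled on the poly-A spikes. RAB5A read 12.54, 12.49 and 12.48 in si-Ctrl and 12.19, 11.91 and 12.45 in si-Med23, a difference of -0.32 ± 0.19 that did not pass (adjusted p = 0.200). The other early endosomal genes, RAB21, RAB22A and RAB31, did not pass either by their brightest probe sets. In a limma fit over probe sets each had another that passed. These gave -1.42 and -1.20 for RAB21, -1.05 for RAB22A (adjusted p = 0.0166) and 0.70 for RAB31 (adjusted p = 0.00924).

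Of the 5 late endosomal and lysosomal genes, RAB32 and RAB38 rose together and RAB7A, RAB9A and RAB29 did not pass. RAB32 and RAB38 are close relatives that build melanosomes and other lysosome-related organelles, and RAB38 serves the surfactant-storing lamellar bodies of alveolar type II cells. RAB32 read 11.26, 11.06 and 11.26 in si-Ctrl, 12.20, 12.34 and 12.58 in si-Med23 and 11.24, 11.02 and 11.39 with si-Elk1. RAB38 read 7.49, 8.02 and 7.93 in si-Ctrl, 8.91, 8.84 and 9.33 in si-Med23 and 7.93, 7.73 and 7.89 with si-Elk1. For both genes si-Med23 lay above every other array, and the si-Elk1 range overlapped that of si-Ctrl. The log2 fold changes in si-Med23 were 1.18 ± 0.15 for RAB32 (adjusted p = 0.00202) and 1.22 ± 0.18 for RAB38 (adjusted p = 0.00276), and both were below control under poly-A scaling.

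**Figure D2:**
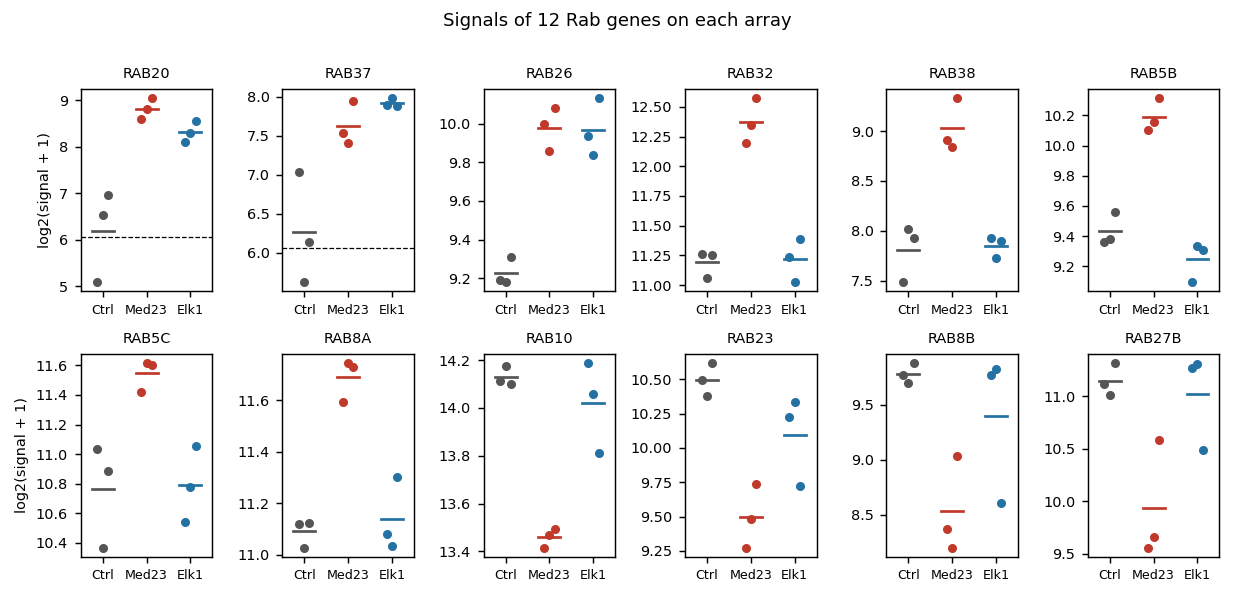
Log2(signal + 1) of 12 Rab genes on each array (points; y axes differ and do not start at 0), with the mean of the 3 arrays of a group as a line and the background level dashed where it is in range. RAB20, RAB37 and RAB26 are above si-Ctrl in both knockdowns, RAB32, RAB38, RAB5B, RAB5C and RAB8A are higher in si-Med23 than in both other groups, and RAB10, RAB23, RAB8B and RAB27B are lower in si-Med23; under poly-A scaling only RAB20 of the rises in si-Med23 stays above si-Ctrl.

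Of 10 exocytic Rabs 4 were higher and 3 lower in si-Med23, where 20.3% and 19.5% of all genes were, and the group itself was not tested. RAB8A and RAB8B direct vesicles to the basolateral surface and the cilium. RAB8A read 11.12, 11.03 and 11.12 in si-Ctrl, 11.59, 11.75 and 11.73 in si-Med23 and 11.08, 11.03 and 11.30 with si-Elk1. It was higher on every si-Med23 array, by 0.60 ± 0.12 (adjusted p = 0.00593). RAB8B read 9.77, 9.69 and 9.88 in si-Ctrl, 8.37, 8.20 and 9.03 in si-Med23 and 9.77, 9.82 and 8.61 with si-Elk1. Every si-Med23 array was below control (-1.24 ± 0.34, adjusted p = 0.0193), and of the si-Elk1 arrays only oligo C was. The RAB8B call was lost without si-Ctrl 3, si-Med23 A or si-Med23 B (adjusted p = 0.0603, 0.0569 and 0.0639), and with no filter on low values (0.0515). The other RAB8B probe sets gave -0.11 and -0.76 (adjusted p = 0.665 and 0.210), and the mean of all its probe sets gave -0.71 (adjusted p = 0.0949).

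RAB27A and RAB27B dock secretory vesicles and lysosome-related organelles at the plasma membrane. RAB27A read 9.80, 9.84 and 10.16 in si-Ctrl, 10.64, 10.39 and 10.43 in si-Med23 and 10.09, 10.10 and 10.11 with si-Elk1, and the si-Med23 arrays were highest (0.55 ± 0.13, adjusted p = 0.0124). RAB27B read 11.12, 11.01 and 11.32 in si-Ctrl, 9.56, 9.66 and 10.59 in si-Med23 and 11.27, 11.31 and 10.49 with si-Elk1. It was lower on every si-Med23 array than on any control (-1.21 ± 0.31, adjusted p = 0.0154), and within si-Elk1 only oligo C was below control. The RAB27B call was lost without si-Ctrl 3, si-Med23 A or si-Med23 B (adjusted p = 0.0542, 0.0506 and 0.0520). The fall of RAB27B was -0.62 (adjusted p = 0.0459) with the mean of all its probe sets. The RAB27A rise did not pass with the mean of all its probe sets (log2 fold change 0.12, adjusted p = 0.521), and it turned negative under poly-A scaling.

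RAB10, which carries cargo to the basolateral surface and GLUT4 to the plasma membrane, read 14.11, 14.17 and 14.10 in si-Ctrl, 13.42, 13.47 and 13.49 in si-Med23 and 14.19, 14.06 and 13.81 with si-Elk1. The si-Med23 arrays lay below the rest and close together, at -0.67 ± 0.12 against control (adjusted p = 0.00496). The other RAB10 probe set, nearly as bright (mean 13.78), gave -0.23 and did not pass in a limma fit over probe sets (adjusted p = 0.168). RAB26, a Rab of secretory granules and synaptic vesicles, read 9.19, 9.18 and 9.31 in si-Ctrl, 10.00, 9.86 and 10.08 in si-Med23 and 9.94, 9.84 and 10.13 with si-Elk1. Both knockdowns lay above control without overlap (0.75 ± 0.12, adjusted p = 0.00340, in si-Med23). RAB37, a Rab of secretory granules, also rose in si-Med23 and is described with si-Elk1 below.

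Within an array the difference of a pair of genes does not depend on how the array was scaled, and the pairs given here were chosen after their values had been seen, so they carry no test. RAB8A minus RAB8B was 1.35, 1.33 and 1.25 in si-Ctrl, 3.22, 3.54 and 2.70 in si-Med23 and 1.31, 1.21 and 2.69 with si-Elk1. RAB27A minus RAB27B was -1.32, -1.17 and -1.16 in si-Ctrl, 1.08, 0.73 and -0.15 in si-Med23 and -1.18, -1.21 and -0.38 with si-Elk1. RAB5B minus RAB5A was -3.18, -3.11 and -2.92 in si-Ctrl, -2.09, -1.76 and -2.14 in si-Med23 and -3.32, -3.03 and -2.54 with si-Elk1. All 3 differences were larger on every si-Med23 array than on any control array, by means of 1.84, 1.77 and 1.08, and the si-Elk1 C array was the one of its group nearest to si-Med23. When the probe sets of each gene were averaged in place of taking the brightest, these means were 1.31, 0.74 and 1.91, again with no overlap of si-Med23 and si-Ctrl arrays. Such averages take in probe sets under the background level, among them a RAB5A probe set at 4.36. RAB32 minus RAB38 averaged 3.38 in si-Ctrl, 3.34 in si-Med23 and 3.37 with si-Elk1.

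**Figure D3:**
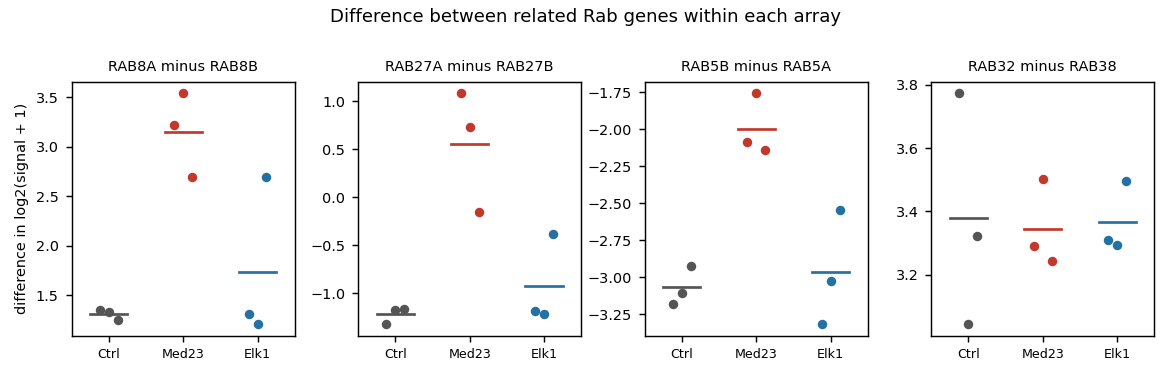
Difference in log2(signal + 1) between 4 pairs of related Rab genes within each array (points, y axis), with the mean of 3 arrays as a line; the scaling of an array cancels, and the level itself reflects the probes. RAB8A minus RAB8B averages 1.31 in si-Ctrl and 3.15 in si-Med23, while RAB32 minus RAB38 stays at 3.38 and 3.34.

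Of 8 recycling Rabs 1 passed in si-Med23 and of 12 ER and Golgi Rabs 2 did, beside 39.8% of all genes, with no test of either group. RAB4A, which returns receptors rapidly to the surface, was the 1 recycling gene of 8 that passed in si-Med23 (0.39 ± 0.13, adjusted p = 0.0445). That call was lost without si-Ctrl 2 or 3, si-Med23 B or C, or si-Elk1 A or B (adjusted p = 0.0967, 0.156, 0.130, 0.0892, 0.0639 and 0.0614), and the sign turned under both spike scalings. RAB11A, the main Rab of the recycling endosome, differed by 0.14 and did not pass. Of the ER and Golgi genes, RAB1B, which acts between the ER and the Golgi, rose from 10.70, 10.80 and 10.53 in si-Ctrl to 11.34, 11.06 and 11.47 in si-Med23 (0.61 ± 0.16, adjusted p = 0.0166, negative under poly-A scaling). Its call was lost without si-Ctrl 3 or si-Med23 C (adjusted p = 0.0639 and 0.0517). RAB33B, a Golgi Rab that also acts in autophagy, fell by 0.82 (adjusted p = 0.0474), a call lost without any one of si-Ctrl 1, 2 or 3, si-Med23 A or B, or si-Elk1 A (adjusted p = 0.0741, 0.0806, 0.143, 0.138, 0.135 and 0.0634). The housekeeping pair RAB1A and RAB2A differed by 0.09 and 0.03 and did not pass.

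Among the remaining genes, RAB20 had the largest rise of the tested Rab genes in si-Med23. RAB20 acts in phagosome and endosome maturation. It read 5.08, 6.54 and 6.95 in si-Ctrl, 8.59, 8.80 and 9.05 in si-Med23 and 8.10, 8.28 and 8.55 with si-Elk1, so both knockdowns lay above all controls. The log2 fold change in si-Med23 was 2.62 ± 0.42 (adjusted p = 0.00314), and 2.30 with signals under the background level raised to it, since a control array lay under that level. RAB23, an inhibitor of Hedgehog signalling, read 10.49, 10.37 and 10.62 in si-Ctrl, 9.27, 9.48 and 9.74 in si-Med23 and 10.23, 10.33 and 9.73 with si-Elk1. It was lower on every si-Med23 array than on any control and fell by 1.00 ± 0.19 (adjusted p = 0.00548).

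RAB40B and RAB40C carry a SOCS box that binds a cullin ubiquitin ligase. RAB40C read 9.40, 8.94 and 9.11 in si-Ctrl and 10.59, 10.31 and 9.71 in si-Med23 (1.05 ± 0.27, adjusted p = 0.0168). RAB40B read 10.12, 10.27 and 9.83 in si-Ctrl and 10.73, 10.59 and 11.14 in si-Med23 (0.75 ± 0.18, adjusted p = 0.0136). Neither overlapped control, and both were below it under poly-A scaling. RAB40B lost its call without si-Ctrl 3 and with the mean of its probe sets (adjusted p = 0.0525 and 0.0829), and RAB40C without si-Ctrl 2 or 3 or si-Med23 A or B (adjusted p = 0.0543, 0.0523, 0.0536 and 0.0512). RAB24, linked to autophagy, rose by 0.41 (adjusted p = 0.0318), which turned negative under both spike scalings. Its call was lost without si-Ctrl 1, 2 or 3 or si-Med23 A, B or C (adjusted p = 0.0637, 0.0862, 0.0964, 0.0659, 0.0827 and 0.0604). The Rab calls numbered 11 without si-Ctrl 3 and ranged up to 24 without si-Elk1 C.

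Spike scalings aside, the calls of RAB10, RAB20, RAB23, RAB26, RAB32, RAB37, RAB38, RAB5B, RAB5C and RAB8A held under each alternative in which the gene could be tested. The stricter filter left out RAB20 and RAB37, and RAB5C has no probe set left without those ending in _x_at or _s_at. The arrays of 28 Rab genes (57.1%) did not overlap between si-Med23 and si-Ctrl, against 57.3% of all genes.

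For several Rab genes the result depended on the choice of probe set. Of the 19 genes that passed in si-Med23, 10 had other single-gene probe sets above background, 17 in all. Of these 12 moved in the same direction, 7 of them past the threshold, and 5 moved the other way without passing (3 of RAB27A and 1 each of RAB27B and RAB4A). Of 20 members that did not pass by their brightest probe set but had another above background, 9 had one that passed in a fit over probe sets. These were RAB11B, RAB15, RAB18, RAB21, RAB22A, RAB28, RAB2A, RAB31 and RAB3B. The matching shares over all genes were not counted, so these counts do not set Rab genes apart. RAB18, a Rab of lipid droplets and the ER, had other probe sets at -1.08 and -1.32 (adjusted p = 0.00959 and 0.00873), against -0.42 for the brightest. RAB21, which takes up integrins, had -1.42 and -1.20 (adjusted p = 0.0143 and 0.0158), against -0.30. RAB2A had probe sets that passed in opposite directions, at 0.54 and -0.56 (adjusted p = 0.0267 and 0.0271). Probe sets of one gene can read different transcript ends, and which transcripts these read was not tested.

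**Figure D4:**
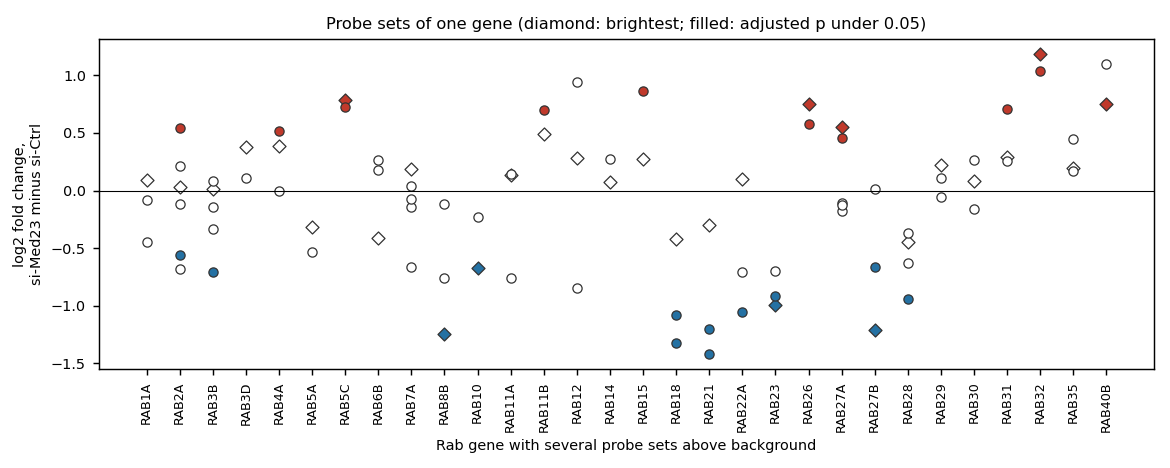
Log2 fold change in si-Med23 against si-Ctrl (y axis) of every single-gene probe set above background, for Rab genes with several (x axis); the diamond is the brightest, used for the gene, and filled points passed in a fit over all probe sets. RAB18 and RAB21 have filled points near -1 or lower beside an open diamond, and RAB2A has filled points at 0.54 and -0.56; rises are relative to the deposited scaling, and poly-A scaling shifts every point by -1.61.

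Knockdown of ELK1 was accompanied by higher signals of 5 Rab genes and lower signals of 0. These are 10.2% of the 49 tested, against 4.26% of all genes, and 3.07% of all genes were higher and 1.19% lower. By limma, 9 of the 49 Rab genes and 3162 of all 12616 genes had an unadjusted p under 0.05, a smaller share for the Rab genes. The median log2 fold change was -0.01 for Rab genes and 0.05 for all genes. The 5 genes were RAB20, RAB37, RAB3D, RAB26 and RAB31, and under poly-A scaling, a shift of -0.64, RAB31 turned negative and the other 4 did not. The split of higher to lower calls, 5 to 0 as deposited, was 4 to 1 with array medians, 1 to 1 with the hybridization controls and 1 to 20 with the poly-A spikes.

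RAB20 was higher by 2.12 ± 0.42 (adjusted p = 0.0312), or 1.80 with low signals raised to the background level, and by 0.93 without passing (adjusted p = 0.260) with the mean of all its probe sets. That mean takes in a probe set at 4.39, under the background level. RAB37 read 7.03, 5.62 and 6.14 in si-Ctrl, 7.54, 7.41 and 7.94 in si-Med23 and 7.89, 7.99 and 7.88 with si-Elk1. Both knockdowns lay above all controls, with log2 fold changes of 1.65 ± 0.32 in si-Elk1 (adjusted p = 0.0286) and 1.36 ± 0.32 in si-Med23 (adjusted p = 0.0110). With low signals raised to the background level these were 1.51 and 1.22. RAB26 differed from control by 0.75 ± 0.12 in si-Elk1 (adjusted p = 0.0191). Its other probe set, nearly as bright (mean 9.62), gave 0.41 and did not pass in a limma fit over probe sets (adjusted p = 0.190). Of the 5 genes, 3 had other single-gene probe sets above background, 4 in all. All 4 moved in the same direction, 1 of them past the threshold. The si-Elk1 and si-Med23 comparisons share the control arrays, so their values stand side by side and are not independent.

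RAB3D, a Rab of regulated secretion, read 9.89, 9.90 and 9.97 in si-Ctrl, 10.67, 10.04 and 10.19 in si-Med23 and 10.85, 10.82 and 10.77 with si-Elk1. The 3 si-Elk1 arrays were close together and above all others (0.89 ± 0.16, adjusted p = 0.0240), and the si-Med23 difference of 0.37 ± 0.16 did not pass (adjusted p = 0.0948). RAB31, which acts between the trans-Golgi network and endosomes, read 10.62, 10.73 and 10.64 in si-Ctrl, 10.89, 10.88 and 11.09 in si-Med23 and 11.15, 11.33 and 11.09 with si-Elk1. It was higher on every si-Elk1 array than on any control (0.53 ± 0.12, adjusted p = 0.0461).

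All 5 si-Elk1 calls depended on single arrays. The number of Rab calls was 2, 0 and 1 without si-Ctrl 1, 2 and 3, and 0, 1 and 1 without si-Elk1 A, B and C. Over these arrays left out, adjusted p reached 0.0913 for RAB20, 0.0995 for RAB37, 0.0724 for RAB26, 0.0822 for RAB3D and 0.141 for RAB31. RAB21 had the fall nearest to the threshold, from 11.26, 11.19 and 11.37 to 10.87, 10.70 and 10.30 (-0.65 ± 0.16, adjusted p = 0.0532). The signals of 16 Rab genes (32.7%) did not overlap between si-Elk1 and si-Ctrl, against 36.3% of all genes. Of the 12 ER-to-Golgi, 8 recycling and 5 late endosomal Rabs 0 passed by limma in si-Elk1, where 4.26% of all genes did, and 0, 1 and 0 of them had an unadjusted p under 0.05. These groups were not tested as such, and 3162 of all 12616 genes had an unadjusted p under 0.05.

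The direct comparison of the knockdowns gave 7 Rab genes higher and 2 lower in si-Med23 than in si-Elk1, 18.4% of those tested against 21.7% of all genes. Of all genes 9.54% were higher and 12.2% lower. The arrays of 21 Rab genes (42.9%) did not overlap, against 38% of all genes. The higher genes were RAB32 (1.16 ± 0.15, adjusted p = 0.00506), RAB38 (1.18 ± 0.18, adjusted p = 0.00755), RAB5B (0.94 ± 0.12, adjusted p = 0.00531), RAB40B, RAB5C, RAB8A and RAB15 (0.83, 0.75, 0.55 and 0.52). Under poly-A scaling, a shift of -0.97, RAB32 and RAB38 stayed higher and the other 5 turned. The split of higher to lower calls, 7 to 2 as deposited, was 28 to 0 with array medians, 4 to 9 with the hybridization controls and 0 to 33 with the poly-A spikes. The lower genes were RAB27B (-1.09 ± 0.31, adjusted p = 0.0388, with overlapping arrays) and RAB10 (-0.56 ± 0.12, adjusted p = 0.0185).

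RAB32, RAB38 and RAB5B kept this call under all 20 alternatives run, the spike scalings not among them. RAB10 differed by -0.19 (adjusted p = 0.244) with median centring, and RAB27B by -0.58 (adjusted p = 0.0861) with the mean of its probe sets. Without si-Elk1 A or B, RAB10 (adjusted p = 0.0704 and 0.0648), RAB40B (0.0616 and 0.0681) and RAB8A (0.0635 and 0.0623) did not pass. RAB5C did not pass without si-Med23 A, B or C or si-Elk1 A or B (0.0573, 0.0851, 0.0728, 0.109 and 0.0910). RAB27B did not pass without any one of si-Ctrl 1, 2 or 3, si-Med23 A or B, or si-Elk1 A or B (0.0580, 0.0572, 0.0549, 0.107, 0.109, 0.123 and 0.122), and RAB15 without 8 of the 9 arrays. RAB20, RAB37 and RAB26 differed between the knockdowns by 0.50, -0.29 and 0.01, and none of these passed (adjusted p = 0.399, 0.524 and 0.967).

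The si-Elk1 C array stood nearer to si-Med23 than A and B did. It was the lowest si-Elk1 array for 5 of the 5 Rab genes that fell in si-Med23, and for 84.2% of all genes that fell. It was the highest for 11 of the 14 Rab genes that rose, and for 77.0% of all genes that rose. Without it, 16 Rab genes passed between the knockdowns in place of 9. MED23 was lowest there too, as given above, and its part in these differences was not tested.

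Of 122 tested genes whose proteins run the Rab cycle, 22 were higher and 27 lower in si-Med23 (40.2%, beside 39.8% of all genes). That split was 53 to 21 with array medians, 6 to 45 with the hybridization controls and 0 to 112 with the poly-A spikes. Under poly-A scaling only SYTL5 of these 22 stayed higher, and under the hybridization controls 19 did, while all 27 falls stayed lower under both.

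Of 6 tested genes for prenylation and membrane recycling, 2 rose and 2 fell in si-Med23, where 39.8% of all genes passed. CHML, a Rab escort protein that presents new Rabs for prenylation, read 10.53, 10.25 and 10.87 in si-Ctrl, 8.04, 8.39 and 7.74 in si-Med23 and 9.19, 9.37 and 8.59 with si-Elk1. All knockdown arrays lay below control, by -2.50 ± 0.26 in si-Med23 (adjusted p = 0.00184) and -1.50 in si-Elk1 (adjusted p = 0.0204), and the knockdowns differed by -0.99 (adjusted p = 0.0293). The subunits of the geranylgeranyl transferase that attaches the lipid moved apart in si-Med23: RABGGTB fell by 1.04 (adjusted p = 0.00331) and RABGGTA rose by 0.59 (adjusted p = 0.0200, negative under poly-A scaling). RABAC1, a Rab acceptor of the Golgi, rose by 1.00 in si-Med23 (adjusted p = 0.00331, negative under poly-A scaling) and by 0.75 in si-Elk1 (adjusted p = 0.0403).

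Among 43 exchange factor genes 6 rose and 9 fell in si-Med23 (34.9%, near the 39.8% of all genes). RABGEF1, the exchange factor Rabex-5 that loads RAB5, read 8.17, 8.08 and 8.29 in si-Ctrl, 9.43, 9.48 and 9.53 in si-Med23 and 8.55, 8.63 and 8.64 with si-Elk1. The si-Med23 arrays were highest and tightly grouped (1.30 ± 0.11, adjusted p = 0.00184). TRAPPC5 and TRAPPC6A, subunits of the TRAPP complexes that load RAB1 and RAB11, rose by 1.04 and 1.16 (adjusted p = 0.00202 and 0.00228), and DENND1B, which loads RAB35, fell by 1.65 (adjusted p = 0.00228). The 3 rises were negative under poly-A scaling. Other TRAPP subunits went both ways. TRAPPC6B read 8.81, 8.80 and 8.98 in si-Ctrl and 7.90, 7.77 and 7.63 in si-Med23. TRAPPC11 and TRAPPC13 also lay below control on every si-Med23 array. TRAPPC1 and TRAPPC4 lay above it as deposited, and below it under the poly-A shift of -1.61. The si-Med23 and si-Ctrl arrays did not overlap for 69.8% of the exchange factor genes and 57.3% of all genes, so this does not set these subunits apart. In si-Elk1 TRAPPC6A rose by 1.15 (adjusted p = 0.00909) and RAB3IP, which loads RAB8, fell by 0.68 (adjusted p = 0.0400).

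Of 31 GTPase-activating protein genes 7 rose and 7 fell in si-Med23 (45.2%, beside 39.8% of all genes). USP6NL, which acts on RAB5 and RAB43, and RAB3GAP1, the catalytic subunit for RAB3, fell by 1.02 and 0.99 (adjusted p = 0.00230 and 0.00313), while TBC1D17 and TBC1D16 rose by 1.08 and 0.85 (adjusted p = 0.00382 and 0.00695, both negative under poly-A scaling). In si-Elk1 0 passed by limma, where 4.26% of all genes did. An unadjusted p under 0.05 was found for 6 of the 31, and for 3162 of all 12616 genes.

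Of 42 effector genes 7 rose and 9 fell in si-Med23 (38.1%, beside 39.8% of all genes). The RAB5 tether EEA1 read 8.83, 8.40 and 9.46 in si-Ctrl, 6.58, 6.39 and 7.50 in si-Med23 and 7.30, 7.61 and 6.40 with si-Elk1. All knockdown arrays were below control, by -2.07 ± 0.41 in si-Med23 (adjusted p = 0.00633) and -1.79 in si-Elk1 (adjusted p = 0.0494). APPL1, a RAB5 effector of early endosomes, fell by 1.83 and 0.94 (adjusted p = 0.00184 and 0.0459). GCC2, a golgin of the trans-Golgi, fell by 1.52 (adjusted p = 0.00209), and SYTL5, a RAB27 effector, rose by 1.96 (adjusted p = 0.00601) in si-Med23.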

How the data were processed

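RNA of 9 A549 samples, 3 a group by the labels, was measured on Affymetrix arrays. The authors deposited 1 intensity per probe set and array, unlogged. RMA and MAS5 are named, with no role or version, per the submitters' processing notes. Quantiles of the deposited intensities differ between arrays, so they were not quantile-normalized, and a scaling of that kind hides changes in total RNA. No genome build is named for the arrays in the labels read.

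Signals were taken as log2(value + 1), so fold changes of dim genes are understated, and no detection calls were used. The platform annotation names 41097 probe sets with 1 gene, 1801 with several and 11721 with none. The 62 control probe sets were left out. Genes whose mean lay under log2 6.05 were filtered. Group differences came from limma 3.58.1 under R 4.3.3 (two-sided lmFit with eBayes, 1 fit of 9 arrays, no block), adjusted by Benjamini-Hochberg over 12616 genes within a contrast, threshold 0.05. A ± value is the SE of the fit with 3 arrays a group. The number of arrays limits the precision. The fit was tested on simulated data in which 200 of 12616 genes were changed in si-Med23, over 10 draws. It recovered 15.9% of 1.5-fold, 51.5% of 2-fold and 87.2% of 4-fold changes, and 5.26% of the calls were false. In the data 39.8% of genes passed in that comparison, so these shares need not hold there. A gene that did not pass may still have changed. Protein sequences were not analysed here.

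The members and gene lists were chosen with earlier results of these data known. Genes named are the targets, the Rab genes that passed by size of change, the brightest and those nearest the background level, the 4 regulators of each list with the smallest p in each knockdown, and related Rabs that went opposite ways; a few others were named after their values were seen. The replicate numbers name different oligos: deviations from the group means of same-numbered arrays correlated between -0.18 and 0.05, so the numbers do not pair the samples. Alternatives were other filters, probe set choices, scalings, pseudocount, array sets, priors and each array left out. A floor at the background level and probe sets of several genes were added after seeing the data, as was the mean of all probe sets for related pairs.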

Additional observations from a re-analysis of the deposited data

Results flagged for a closer look

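The 11 probe sets annotated to a Rab gene together with another gene were outside the comparisons above. Of these, 5 were higher in si-Med23 than in si-Ctrl in a fit over all probe sets, and were picked for that. Among all genes tested 20.3% were higher, and the share over all probe sets was not counted. This set was looked at after the data had been seen. The probe sets of NARR and RAB34, the latter a Golgi and ciliary Rab with no probe set of its own here, gave log2 fold changes of 0.48 (adjusted p = 0.0286) and 0.71 (adjusted p = 0.00835). Those of RAB4B and the readthrough MIA-RAB4B gave 0.59 (adjusted p = 0.0266) and 0.79 (adjusted p = 0.0247), and the one of RAB43 and the readthrough ISY1-RAB43 gave 0.79 (adjusted p = 0.0330). In si-Elk1 against si-Ctrl the RAB34 probe sets gave 0.10 and 0.17, those of RAB4B 0.64 and 0.73 and that of RAB43 0.57, and none passed. The RAB4B values were thus similar in both knockdowns. A further probe set of RAB4B and MIA-RAB4B gave 0.75 in si-Med23, and one of RAB4B, EGLN2 and their readthrough gave 0.09. Neither passed (adjusted p = 0.0525 and 0.828). The probe sets of RAB4B and RAB43 alone gave 0.06 and -0.20 in si-Med23 and did not pass in the limma fit over genes (adjusted p = 0.926 and 0.713). A probe set of RAB6A and RAB6D was lower in si-Med23, at -0.56 (adjusted p = 0.0328). Another of RAB6A and RAB6D gave -0.09, and a brighter one shared with RAB6C as well gave -0.28. Neither passed (adjusted p = 0.854 and 0.229). All 5 rises in si-Med23 turn negative when arrays are scaled on the poly-A spikes, and the genes of a shared probe set cannot be told apart. Groups of 3 arrays were not tested for outlying samples.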

How the results depend on the processing

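Higher and lower calls of Rab genes in si-Med23 against si-Ctrl (19) numbered 29 with median centring and 43 with poly-A spike scaling, and 11 to 24 with 1 array left out. In si-Elk1 against si-Ctrl (5) they numbered 0 with no filter on low values, 3 on averaging probe sets, 2 with only the 6 arrays compared, 2 with hybridization control scaling, 21 with poly-A scaling, and 0 to 5 with 1 array left out. Between the knockdowns (9) they numbered 4 with no filter, 14 with the stricter filter, 28 with median centring, 33 with poly-A scaling, and 3 to 16 with 1 array left out. With the replicate number as a block, which treats same-numbered arrays as pairs, they were 2 in si-Elk1 and 5 between the knockdowns. Regulator calls in si-Med23 (49) numbered 74 with median centring, 112 with poly-A scaling and 38 to 64 with 1 array left out. In si-Elk1 (6) they numbered 1 with no filter, on averaging all probe sets of a gene, without probe sets ending in _x_at or _s_at and with the block, 11 with the stricter filter and with the trended robust prior, 51 with poly-A scaling, and 1 to 6 with 1 array left out. Between the knockdowns (27) they numbered 7 with no filter, 14 on averaging probe sets, 17 without _x_at and _s_at probe sets, 52 with median centring, 10 with 6 arrays, 12 with the block, 93 with poly-A scaling, and 7 to 47 with 1 array left out.

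The median Rab log2 fold change in si-Med23 (0.19) was 0.43 with median centring, -0.30 with hybridization control scaling and -1.42 with poly-A scaling, and 0.19 to 0.25 with 1 array left out. In si-Elk1 (-0.01) it was -0.050 with the stricter filter, -0.14, -0.19 and -0.65 with those scalings, and -0.074 to 0.0084 with 1 array left out. Between the knockdowns (0.19) it was 0.27 under the stricter filter, -0.011 when all probe sets of a gene were averaged, 0.044 without _x_at and _s_at probe sets, 0.56, -0.12 and -0.78 with those scalings, and 0.12 to 0.24 with 1 array left out. The scalings add 1 constant to an array, which moves every gene alike, and the cause of the other changes was not tested. Other alternatives moved the counts by at most 1.5 times, which the fit of only the 6 arrays reached between the knockdowns (6 Rab genes in place of 9). Dim genes such as RAB17, RAB39B and RAB42 had wide errors, and signal over background limits what can be said of them.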
